A study of Rattus norvegicus with 12 samples.

Results

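Neighboring probes of the promoter array were joined into 16174 regions, called promoters here. Of these, 3183 autosomal promoters had an intermediate mean methylation signal that hid a steep slope of the signal. Each had a high end and a low end inside the same promoter. The signal also went with probe length and was often dim at the low end. With the median of probes of the same length subtracted, 1739 of them kept a difference of at least 0.6 log2 units between the ends. How far the slope is one of methylation was not tested. The DNA came from kidneys of male SHRSP pups (the stroke-prone strain of spontaneously hypertensive rats, inbred and prone to high blood pressure), examined on 12 arrays at 6 weeks of age. The mCN-CN group had dams fed the control diet (20% casein) in pregnancy and was kept on that diet. All other pups (mLP-CN, mLP-LP, and mLP-HP) had dams fed a low-protein diet (9% casein) in pregnancy and differed in their own diet over the last 2 weeks, which held 20% casein in mLP-CN, 9% in mLP-LP, and 40% in mLP-HP. Each group had 3 arrays, numbered as replicates 1 to 12 across the study. The labels do not say whether the arrays of a group came from separate litters, so p-values measure the spread between these arrays. Kidney DNA holds many cell types, and a change of methylation within a cell type and a change in the share of a cell type cannot be told apart.

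In mammals, methyl groups are placed mainly on cytosines followed by guanine (CpG sites). Dense clusters of CpG sites at promoters (CpG islands) are usually unmethylated, whereas the CpG-poorer DNA around them is usually methylated, and the flanks of islands (shores) are known for differences in methylation between tissues. In methylated DNA immunoprecipitation (MeDIP), an antibody pulls down fragments that carry methylated cytosine, and the pulled-down DNA (Cy5) is compared with the input DNA (Cy3) on the array. The ratio depends on the number of methylated cytosines in a fragment as well as on the share of molecules methylated. It is therefore a relative level and not a percentage of methylation.

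The members were chosen from their measured values. Probes with start positions within 1000 bp of the next were joined, and 11378 autosomal regions with at least 9 probes and a length of at most 5000 bp were eligible. The level of a probe was log2(Cy5/Cy3) from the uncorrected median signals, centered on the median of each array and averaged over the 12 arrays. Of the eligible promoters, 5996 had a mean level within 0.3 log2 units of 0. Each end was taken as the first or the last probes, as many as the probe count divided by 3 and rounded down, and the 3183 members were those whose ends differed by at least 0.6. They made up 28.0% of eligible promoters and 53.1% of those with an intermediate mean level. The other 2813 intermediate promoters, with a smaller difference, served for comparison. The difference between the ends, high minus low, is called the step below. The size of the step is thus a description of the choice and was not tested.

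Members were given by position on build rn4, since the files pair no probe with a gene. The strand of a promoter is not given either, so that "rising" and "falling" refer to the direction of increasing position and not to the direction of transcription. The level rose along the chromosome in 1705 members and fell in 1478. Members were found on all 20 autosomes, from 24.4% of the eligible promoters of chromosome 19 to 34.8% of those of chromosome 12.

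The median step was 1.05 log2 units (quartiles 0.80 and 1.41), which is a 2.07-fold ratio between the ends, and the largest was 3.26. The medians of the high and low ends were 0.54 and −0.58. The comparison promoters, whose step the rule kept under 0.6, had a median step of 0.28. Over all eligible promoters, members included, the median step was 0.61. At the threshold, the members just inside were on chromosome 17 (41163536 to 41165153) and chromosome 20 (4696686 to 4698336), with steps of 0.6002 and 0.6004, and the promoters just outside were on chromosome 7 (114424463 to 114426171) and chromosome 12 (2528710 to 2530300), both with a step of 0.599. No gap in the values separated members from the other intermediate promoters.

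A typical member held 10 probes over 1680 bp, the same number of probes as the comparison promoters (10, over 1693 bp). The course of the level along a member was described by a single break and by a straight line. A break with a flat level on each side left less unexplained variance than a straight line in 2980 members (93.6%), and the break accounted for a median of 48.8% of the variance between probes against 28.0% for the line. This order also held in 99.5% of the comparison promoters, where the break and the line accounted for 21.1% and 2.80%. Over all eligible promoters the break and the line accounted for 32.4% and 10.8%. A break has more freedom than a line, and these shares are a description. The median distance from the low end of a member to its break was 630 bp, and the median distance from the break to the high end was 800 bp. The jump at the break had a median of 1.25.

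The steepest falling member was on chromosome 6 (10774355 to 10775912), with 9 probes. Its first 5 probes, over 663 bp, had levels between 0.48 and 2.22, the next was at −0.45, and the last 3 were at −2.97, −1.65, and −2.73. With uncorrected signals, the step was 2.86, 3.37, and 3.45 in the mCN-CN arrays, 2.60, 2.60, and 2.55 in the mLP-CN arrays, 3.72, 2.54, and 2.56 in the mLP-LP arrays, and 4.03, 4.59, and 4.21 in the mLP-HP arrays. All 12 arrays had the high end on the same side. The other steep falling members were on chromosome 6 (25719844 to 25721507, step 2.95), chromosome 7 (118319424 to 118321133, step 2.69), and chromosome 12 (42313432 to 42315158, step 2.69). On these last promoters 22 to 25 of the 36 readings of the low end (3 probes on 12 arrays) were well above background in both channels, against 11 of 36 for the steepest.

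The steepest rising member was on chromosome 10 (11727303 to 11728891), with 10 probes. Its first 3 probes were at −2.23, −2.38, and −1.68, and the 5 probes from 904 bp onward were at 0.64 to 1.66. With uncorrected signals, its step was 3.30, 3.12, and 3.55 in the mCN-CN arrays, 2.22, 2.50, and 1.97 in the mLP-CN arrays, 3.88, 2.36, and 2.40 in the mLP-LP arrays, and 3.54, 4.28, and 4.03 in the mLP-HP arrays. The next were on chromosome 7 (37712868 to 37714543, step 3.003), chromosome 13 (38055806 to 38057536, step 2.98), and chromosome 8 (114299682 to 114301391, step 2.86). The 3 probes of the low end were well above background in both channels on 0, 0, and 12 of 12 arrays on chromosome 10. These counts were 0, 12, and 0 on chromosome 7 and 0, 4, and 2 on chromosome 13. The low end of the promoter on chromosome 8 was well above background in both channels in 1 of 36 readings. Its first 3 probes had levels of −3.05, −1.59, and −1.60 at 0, 192, and 555 bp, and the next, at 709 bp, was at 1.02.

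**Figure D1:**
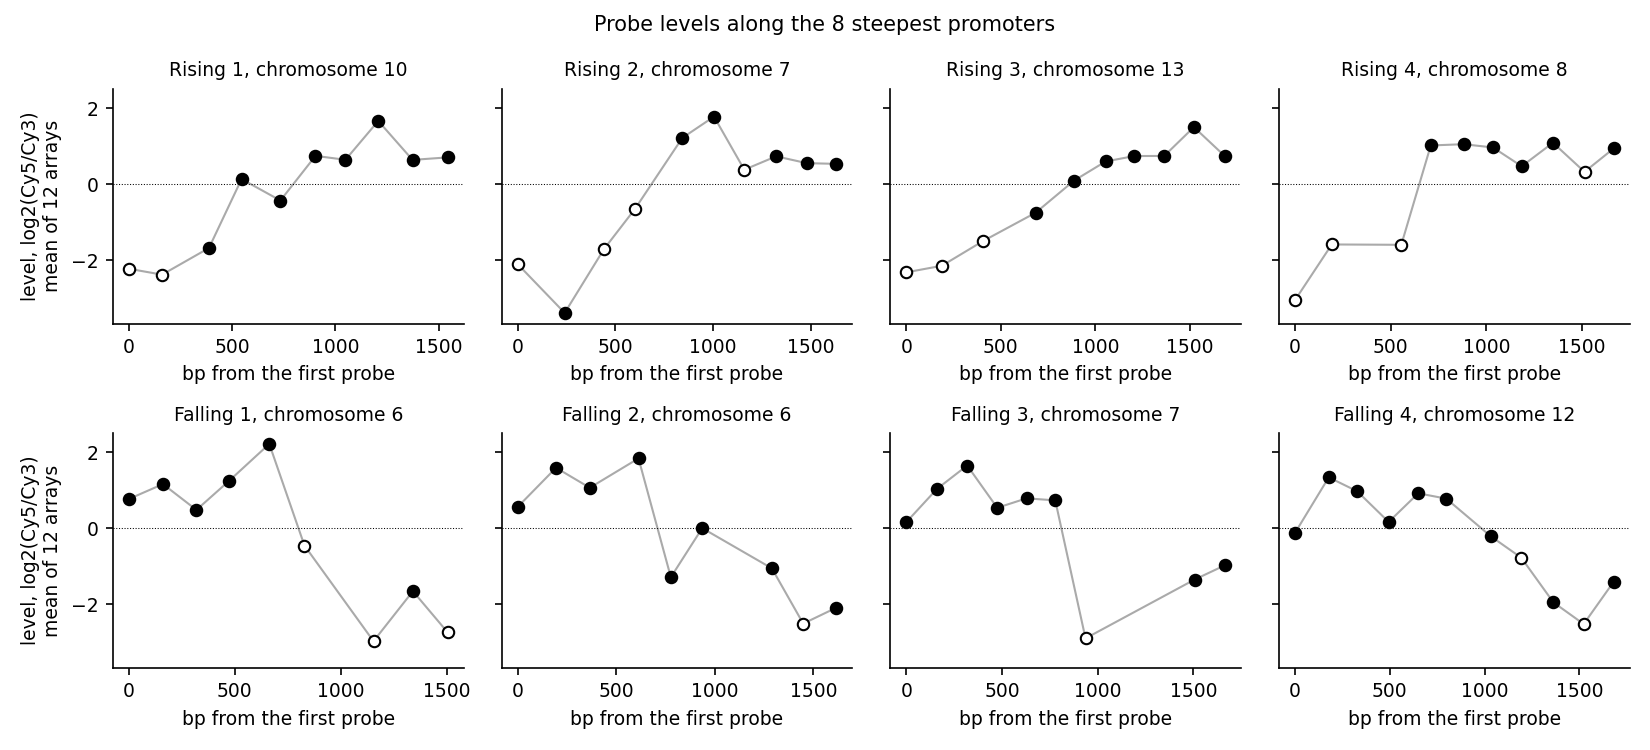
Probe levels (log2(Cy5/Cy3), uncorrected signals, mean of 12 arrays) along the 4 steepest rising and the 4 steepest falling members, against the distance from the first probe in bp. Filled points were well above background in both channels on at least 6 of the 12 arrays, and open points were not. Most open points lie at the low ends.

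The low ends were dim in the immunoprecipitated channel. Of the readings of probes in the low ends of members, 60.9% were well above background in Cy5 and 89.9% in Cy3, whereas at the high ends the shares were 89.9% and 91.6%. In 49 members no probe of the low end was well above background in Cy5 on any array, and this was so at the high end of 0 members. Such a low end was found in 245 of the 11378 eligible promoters and in 3 of the 2813 comparison promoters, where 65.8% and 75.4% of low-end readings were well above background in Cy5. The median difference between the ends was 1.45 log2 units in Cy5 and 0.29 in Cy3. In the comparison promoters these differences were 0.38 and 0.08, and over all eligible promoters they were 0.82 and 0.12.

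The length of the probes, which the rule did not use, went with the level. Probes on the array were 45 to 60 bases long, and over all autosomal probes the median level fell from 0.40 at 45 bases to −0.91 at 60 bases. In 2714 members (85.3%) the high end had shorter probes than the low end, in 326 (10.2%) it had longer probes, and in 143 (4.49%) the mean length was equal. In the comparison promoters the high end had shorter probes in 59.0% and longer probes in 33.0%. Over all eligible promoters these shares were 68.3% and 24.3%. The median probe length was 45 bases at the high end of members and 50.7 bases at the low end. Within members, the correlation between probe length and level over the probes of the promoter had a median of −0.55, and it was below −0.5 in 1786 of 3154 members and above 0.5 in 4. The comparison promoters had a median of −0.40, with 1046 of 2778 below −0.5, and the eligible promoters had a median of −0.44, with 4816 of 11148 below −0.5. Neighboring probes are not independent, and these values are a description.

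Since the rule fixed a step of at least 0.6 in every member, the steps in sets of members with different probe lengths are a description only. The median was 0.86 in the 143 members with equal lengths, where the ends differed by 0.71 in Cy5 and −0.24 in Cy3. It was 0.85 in the 326 members with longer probes at the high end, where Cy5 differed by 0.51 and Cy3 by −0.48. In the 2714 members with shorter probes at the high end, the median step was 1.10, and Cy5 and Cy3 differed by 1.60 and 0.40. When the median of probes of the same length was subtracted on each array, 1739 members (54.6%) still had a step of at least 0.6, and the direction turned in 229. After this subtraction the median step was 0.56 with shorter probes at the high end and 1.07 with longer ones. Applied anew to such values, the rule chose 2958 promoters, of which 1489 were members.

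**Figure D2:**
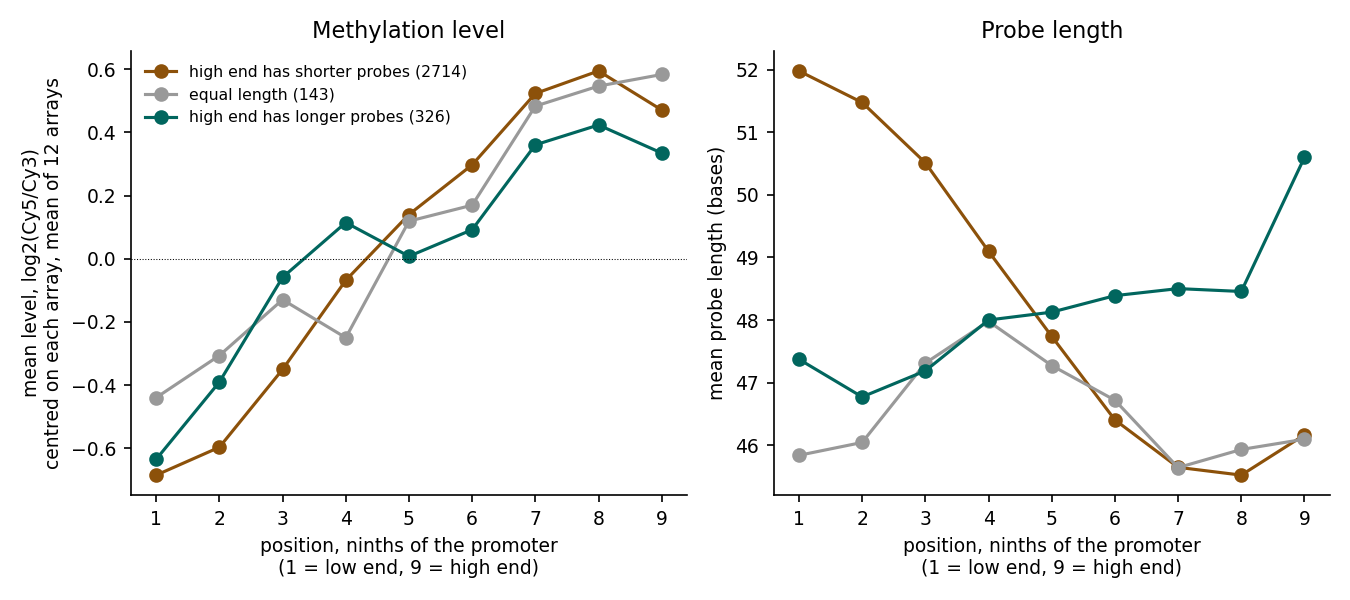
Mean level (left, log2(Cy5/Cy3), uncorrected signals, mean of 12 arrays) and mean probe length (right, bases) along the members, from the low end to the high end in ninths, for members whose high end had shorter, equal, or longer probes. The level rises in all 3 sets by construction, whereas probe length falls from 52.0 to 46.2 bases in the largest set and rises from 47.4 to 50.6 bases where the high end had longer probes.

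Most promoters chosen without a group sloped in the same direction on the arrays of that group. All arrays carry the same probes, so that an effect fixed by the probe would recur on each of them. The shares below therefore do not show where the slope comes from, and no share for other promoters is given here. When the rule was applied to the 9 arrays of the other groups, it chose 3128 to 3192 promoters, and on each array of the group left out 97.8% to 99.9% of them sloped in the same direction. The share with a step of at least 0.6 on the array left out ranged from 64.3% (mLP-CN replicate 6) to 93.1% (mLP-LP replicate 10). Of the members, 3031 (95.2%) sloped in the same direction on all 12 arrays, and 1331 (41.8%) had a step of at least 0.6 on all 12. Both counts use the values by which the members were chosen and are a description.

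The height of the step differed between arrays. With uncorrected signals, the median step over the members was 1.13, 1.15, and 1.01 in the mCN-CN arrays, 0.80, 0.86, and 0.79 in the mLP-CN arrays, 1.37, 0.84, and 0.89 in the mLP-LP arrays, and 1.38, 1.48, and 1.39 in the mLP-HP arrays. Replicate 10 of mLP-LP lay with the mLP-HP arrays and the other 2 mLP-LP arrays lay near the mLP-CN arrays, and 2 of the 3 mLP-HP arrays were scanned together with mLP-LP replicate 10. The arrays were read in 5 scans. Scan 1 held mCN-CN replicates 1 and 2, scan 2 held mCN-CN replicate 3 and all mLP-CN arrays, scan 3 held mLP-HP replicate 7, scan 4 held mLP-HP replicates 8 and 9 with mLP-LP replicate 10, and scan 5 held mLP-LP replicates 11 and 12. The SD of the uncorrected log ratios over all probes was 0.82 to 0.85 in mLP-CN, 1.04 to 1.09 in mCN-CN, 1.21 to 1.30 in mLP-HP, and 1.16, 0.88, and 0.89 in mLP-LP, where replicate 10 again stood apart from the other 2. On mCN-CN replicate 3, 16509 of the 172669 probes were flagged as outliers, the most of any array.

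After background correction and quantile normalization, which gives all arrays the same distribution of log ratios, the medians lay closer together. They were 0.80, 0.80, and 0.73 in mCN-CN, 0.68, 0.76, and 0.70 in mLP-CN, 0.88, 0.76, and 0.77 in mLP-LP, and 0.82, 0.85, and 0.85 in mLP-HP. The group means were 0.78 ± 0.04, 0.71 ± 0.04, 0.80 ± 0.07, and 0.84 ± 0.02 (SD, n = 3). The mLP-HP arrays did not overlap the mLP-CN arrays, and 2 of the 3 mLP-LP arrays differed from the highest mLP-CN array by less than 0.02. All differences below are on this normalized scale.

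**Figure D3:**
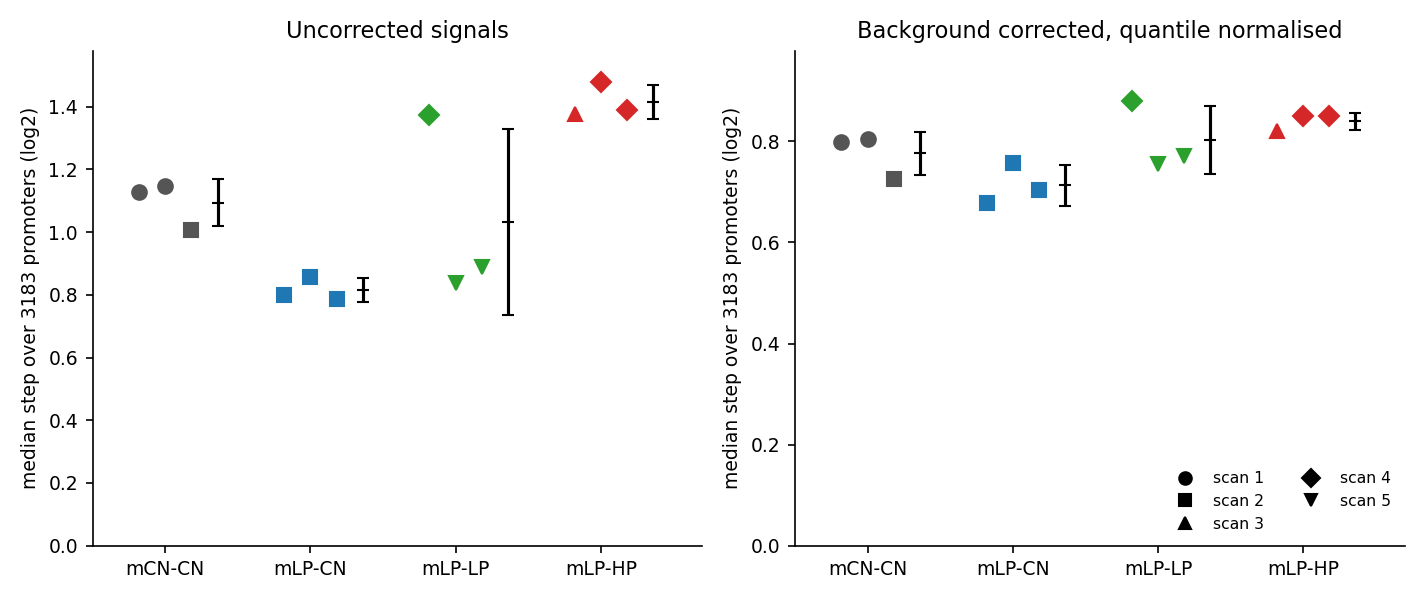
Median step over the 3183 members on each array (log2 units, high end minus low end), from uncorrected signals (left) and after background correction and quantile normalization (right). Symbols mark the 5 scans, and bars show the mean ± SD of the 3 arrays of a group; the mLP-CN arrays are lowest as a group and mLP-LP replicate 10 lies at the height of the mLP-HP arrays in both panels.

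Differences between groups in the step were fitted with limma over the 12047 promoters with at least 9 probes, with Benjamini-Hochberg adjustment over all of them, and an adjusted p under 0.05 was taken as a call. The rule used the mean of all arrays and not a difference between groups. That mean was of uncorrected log ratios, which spread most on the mLP-HP arrays, so that these weighed most in choosing members and their high end. Applied without the mLP-HP arrays, the rule chose 2764 of the 3183 members, against 2940 to 3025 without another group. How far the choice enters the differences from mLP-HP was not tested. The first 3 comparisons below share the mLP-CN arrays, so that a high or low value in these arrays enters all of them. For this reason their calls are given side by side and were not set against each other. Counts of members under alternative settings are given without the share over all promoters, except where the median of probes of the same length was subtracted. They show how the calls move with the setting and are not a trait of the members.

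For the effect of the maternal diet (mLP-CN vs. mCN-CN), the step was larger in 6 members and smaller in 59, which is 0.189% and 1.85% of members. Over all promoters tested, 0.556% were larger and 1.32% smaller. The median difference over the members was −0.08 log2 units, and over all promoters it was −0.04. The high end differed by a median of −0.06, with 12 members higher and 64 lower (0.377% and 2.01%, beside 1.06% and 1.69% of all promoters). The low end differed by 0.02, with 30 higher and 9 lower (0.943% and 0.283%, beside 0.739% and 0.457%). The counts rested on single arrays. The total was 335 without mCN-CN replicate 3 (49 larger and 286 smaller), 0 without mCN-CN replicate 1 or mLP-CN replicate 4 or 6, 1 without mCN-CN replicate 2, and 24 without mLP-CN replicate 5. With scan as a fixed block, which uses only the contrast within scan 2, where mCN-CN replicate 3 (the array with the most flagged probes) is the single mCN-CN array and is assumed to vary like the others, 120 members were larger and 133 smaller. The split was 15 larger and 21 smaller without background correction and 0 and 23 without quantile normalization.

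For the low-protein diet after birth (mLP-LP vs. mLP-CN), the step was larger in 319 members and smaller in 102 (10.0% and 3.20%). Over all promoters the shares were 8.44% and 5.18%. The median difference over the members was 0.10, against 0.05 over all promoters. The high end had a median difference of 0.07, with 398 members higher and 120 lower (12.5% and 3.77%, beside 10.9% and 5.99% of all promoters). The low end had a median difference of −0.03, with 179 higher and 253 lower (5.62% and 7.95%, beside 7.39% and 7.48%). With scan fitted as a random block, no member was called. Without mLP-CN replicate 4, mLP-CN replicate 6, or mLP-LP replicate 12, the counts were 105, 126, and 176. Without quantile normalization 256 members were larger and 10 smaller, and without background correction 8 and 4.

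For the high-protein diet after birth (mLP-HP vs. mLP-CN), the step was larger in 828 members and smaller in 320 (26.0% and 10.1%). Over all promoters the shares were 21.4% and 14.1%, and the sum of both directions was 36.1% of members and 35.5% of all promoters. The share called was near the background. The split between directions is a description, since the mLP-HP arrays weighed most in choosing the members and their high end. The median difference was 0.15, against 0.07 over all promoters and 0.04 in the comparison promoters, of which 543 were larger and 477 smaller. The high end was higher in 842 members and lower in 320 (26.5% and 10.1%, beside 22.8% and 14.3% of all promoters), and the low end was higher in 437 and lower in 690 (13.7% and 21.7%, beside 16.8% and 19.8%). With scan fitted as a random block, 176 members were called, 116 larger and 60 smaller. The split was 1975 and 69 without quantile normalization, 1531 and 68 with the processed signals, and 843 and 24 after loess. No share over all promoters is given for these settings, so that these splits cannot be read as particular to the members. Without quantile normalization, the median difference over all promoters was 0.30, and the median over the members was 0.54. Without mLP-CN replicate 4, 748 members were called. No scan held both mLP-CN arrays and arrays of the groups with a changed diet after birth, and in these comparisons scan and diet cannot be told apart.

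Between the high- and low-protein diets (mLP-HP vs. mLP-LP), no member was called and the background was 0%. In limma, 664 members had an unadjusted p under 0.05, as did 20.7% of all promoters (2498 of 12047), a share near that of the members. Without mLP-LP replicate 10, the array that lay with the mLP-HP arrays, 767 members were called, 525 with a larger step in mLP-HP and 242 with a smaller one. With the quantile normalization left out, 346 members were called, and with the processed signals 288. Replicate 10 was singled out from its values, and no share over all promoters is given for these settings. The counts therefore do not show a difference particular to the members.

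The sign of these median differences went with the order of probe lengths. In mLP-HP vs. mLP-CN, the median difference in step was 0.19 where the high end had shorter probes (780 members larger, 222 smaller), −0.04 where the lengths were equal (17 larger, 31 smaller), and −0.10 where the high end had longer probes (31 larger, 67 smaller). In mLP-LP vs. mLP-CN, the medians were 0.13, 0.01, and −0.05, and in mLP-CN vs. mCN-CN they were −0.09, −0.01, and 0.01. Over all autosomal probes the same differences between groups changed with probe length. From 45 to 60 bases, the median difference went from 0.18 to −0.38 in mLP-HP vs. mLP-CN, from 0.14 to −0.28 in mLP-LP vs. mLP-CN, and from −0.11 to 0.23 in mLP-CN vs. mCN-CN. The difference in normalized level between probes of 45 and 60 bases was 0.32, 0.47, and 0.36 on the mLP-CN arrays and 0.57 to 0.88 on the other 9 arrays.

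When the median of probes of the same length was subtracted on each array before the fit, an alternative added after the data had been seen, the excess of larger steps in the comparisons after birth was gone, and the part of probe length or of anything that goes with it in the differences was not otherwise tested. In mLP-HP vs. mLP-CN, 404 members were larger and 532 smaller (12.7% and 16.7%), beside 12.7% and 16.6% of all promoters. In mLP-LP vs. mLP-CN the counts were 88 and 205 (2.76% and 6.44%), beside 3.20% and 5.48%, and in mLP-CN vs. mCN-CN they were 14 and 8 (0.440% and 0.251%), beside 0.324% and 0.257%. The median differences over the members became −0.01, −0.03, and 0.02. Leaving out dim probes gave 269 larger and 309 smaller members in mLP-HP vs. mLP-CN, among 2095 members that could still be fitted. The median differences in step were then 0.02, 0.00, and 0.00 in mLP-CN vs. mCN-CN, mLP-LP vs. mLP-CN, and mLP-HP vs. mLP-CN. In mLP-HP vs. mLP-CN, 393 members had a larger step and 305 a smaller step both with and without the length effect removed, and in mLP-LP vs. mLP-CN the numbers were 86 and 88. No member was called in opposite directions by these settings.

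**Figure D4:**
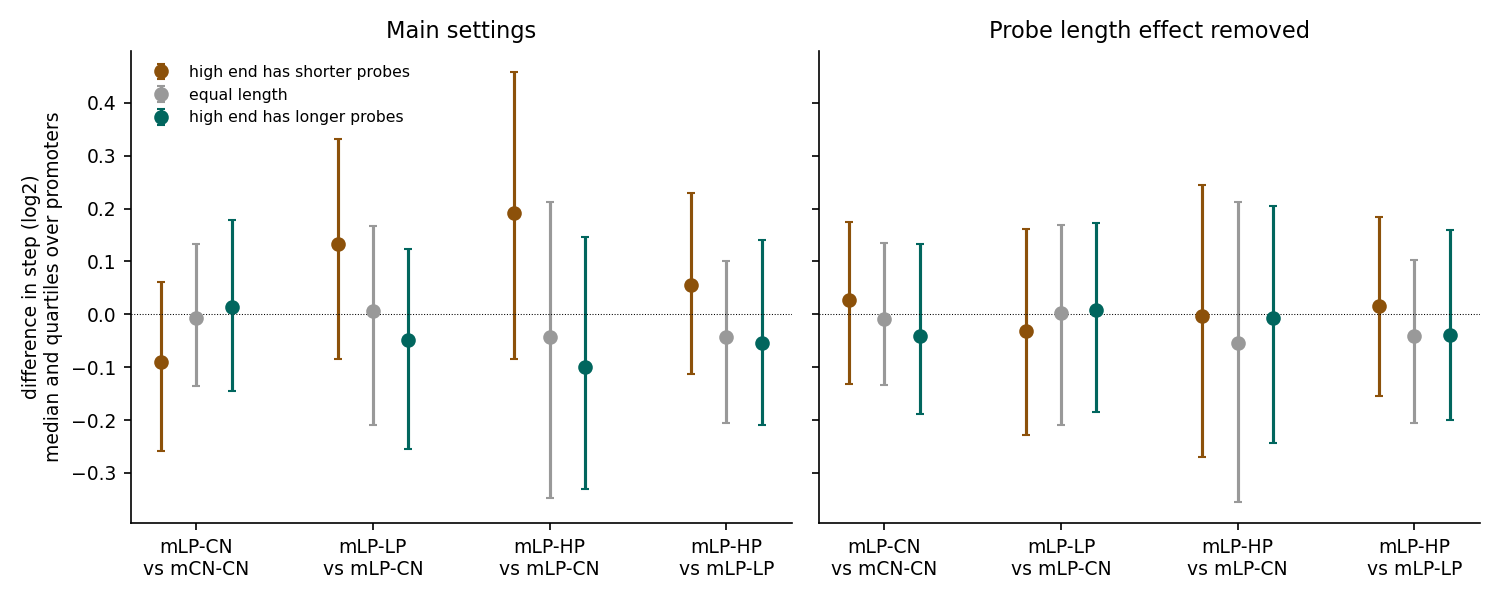
Difference in step between groups (log2 units, normalized scale), as the median and quartiles over members whose high end had shorter (2714), equal (143), or longer (326) probes, with the main settings (left) and after subtraction of the median of probes of the same length (right). The medians of mLP-HP vs. mLP-CN spread from 0.19 to −0.10 on the left and lie between −0.05 and 0.00 on the right.

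The promoters named in each comparison were taken from the called members with no overlap of arrays between the 2 groups, in order of the size of the difference. The largest difference in step was found on chromosome 12 (28248928 to 28250498, a falling member with 9 probes). Its step was 0.42, 0.26, and −0.12 in mCN-CN, −0.63, −0.43, and −0.98 in mLP-CN, 0.64, 0.47, and 0.49 in mLP-LP, and 0.75, 0.93, and 1.11 in mLP-HP. On the normalized scale, the promoter thus had its higher end on the opposite side in the mLP-CN arrays, and the mLP-CN arrays did not overlap any other group. With uncorrected signals averaged over the 12 arrays, its step lay near the threshold of 0.6. Its first 3 probes were then at 0.10, 1.24, and −0.19 and its last 3 at 0.75, 0.13, and −1.54. The last probe was well above background in both channels on 4 of 12 arrays. The differences were −0.87 ± 0.16 (SE, adjusted p = 0.026) for mLP-CN vs. mCN-CN, 1.22 ± 0.16 (adjusted p = 0.0028) for mLP-LP vs. mLP-CN, and 1.61 ± 0.16 (adjusted p = 0.00016) for mLP-HP vs. mLP-CN. Both ends took part: the high end was at −0.29 ± 0.07 in mLP-CN and 0.68 ± 0.05 in mLP-HP, and the low end was at 0.39 ± 0.22 and −0.25 ± 0.16 (SD, n = 3). The mLP-HP vs. mLP-CN difference passed under all 17 alternatives, and with the length effect removed it was 1.36. The difference for mLP-LP vs. mLP-CN passed under 14 of 17, and that for mLP-CN vs. mCN-CN under 9 of 18.

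On chromosome 8 (21157798 to 21159481), the step was 0.19, 0.32, and 0.45 in mCN-CN, −0.35, −0.36, and −0.28 in mLP-CN, 1.02, −0.48, and 0.24 in mLP-LP, and 1.29, 1.10, and 1.09 in mLP-HP. The 3 mLP-LP arrays ranged from below the mLP-CN arrays to near the mLP-HP arrays, with replicate 10 the highest. The difference for mLP-HP vs. mLP-CN was 1.49 ± 0.24 (adjusted p = 0.00061), with the high end at 0.47 ± 0.03 in mLP-HP and −0.54 ± 0.17 in mLP-CN. The slope of the mLP-CN arrays was turned on the normalized scale only. With uncorrected signals their steps were 0.12, 0.04, and 0.09, in the same direction as in mLP-HP (2.09, 1.90, and 1.83).

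The largest decrease was on chromosome 1 (208009347 to 208011363, rising, 11 probes), where all 36 readings at each end were well above background and the high end had the longer probes. The step was 1.06, 0.97, and 0.94 in mCN-CN, 1.52, 1.38, and 1.49 in mLP-CN, 0.38, 1.38, and 1.46 in mLP-LP, and 0.19, 0.16, and 0.18 in mLP-HP. The mLP-HP arrays lay below all others, and mLP-LP replicate 10 lay near them. The difference for mLP-HP vs. mLP-CN was −1.29 ± 0.20 (adjusted p = 0.00054), and that for mLP-LP vs. mLP-CN was −0.39 ± 0.20 (adjusted p = 0.20). The low end rose from −0.89 ± 0.06 to 0.20 ± 0.04 (adjusted p = 0.00015), whereas the high end went from 0.58 ± 0.06 to 0.38 ± 0.04 (adjusted p = 0.12). By the means of the ends, the larger change was thus at the low end. Within the high end, the probe at 1655 bp went from 0.11 in mLP-CN to 0.66 in mLP-HP. The last probe, at 1964 bp, went from 0.08 to −1.08, so that opposite changes partly cancelled in the mean.

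A similar value was obtained on chromosome 13 (109121710 to 109123483, rising), where the high end had probes of 50 bases and the low end of 45 bases. Its step was 1.33, 1.38, and 1.29 in mLP-CN, 0.16, 0.19, and −0.07 in mLP-HP, 0.24, 0.76, and 1.03 in mLP-LP, and 1.10, 0.95, and 2.16 in mCN-CN. The mLP-HP arrays lay below those of mLP-CN and mCN-CN. The difference was −1.24 ± 0.25 (adjusted p = 0.0019), and it passed under 15 of 17 alternatives (adjusted p = 0.10 with scan as a random block).

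In mLP-LP vs. mLP-CN, the rule also named a falling member on chromosome 1 (177089212 to 177090815). Its low end was not well above background in any of 36 readings and has only a bound, so that no difference in step is given. Its high end, above background in all 36 readings, was at −0.10 ± 0.02 in mLP-CN and 0.32 ± 0.20 in mLP-LP (SD, n = 3), a difference of 0.42 ± 0.10 (SE, adjusted p = 0.010). The largest decreases were on chromosome 12 (33622180 to 33623801, rising) and chromosome 11 (64006088 to 64007818, rising). On chromosome 12 the step was 1.43, 1.28, and 1.12 in mLP-CN, 0.37, 0.23, and 0.38 in mLP-LP, 0.15, 0.11, and 0.05 in mLP-HP, and 0.66, 0.34, and 0.95 in mCN-CN, and the mLP-CN arrays were the highest of all. The difference for mLP-LP vs. mLP-CN was −0.95 ± 0.15 (adjusted p = 0.0030), mostly at the low end, which was −0.61 ± 0.17 in mLP-CN and 0.09 ± 0.09 in mLP-LP. On chromosome 11 the step was 1.37, 1.42, and 1.39 in mLP-CN and 0.74, 0.21, and 0.45 in mLP-LP, a difference of −0.92 ± 0.13 (adjusted p = 0.0028). With scan fitted as a random block, these decreases did not pass (adjusted p = 0.17 and 0.12), nor did the increase on chromosome 12 above (28248928 to 28250498, adjusted p = 0.12).

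**Figure D5:**
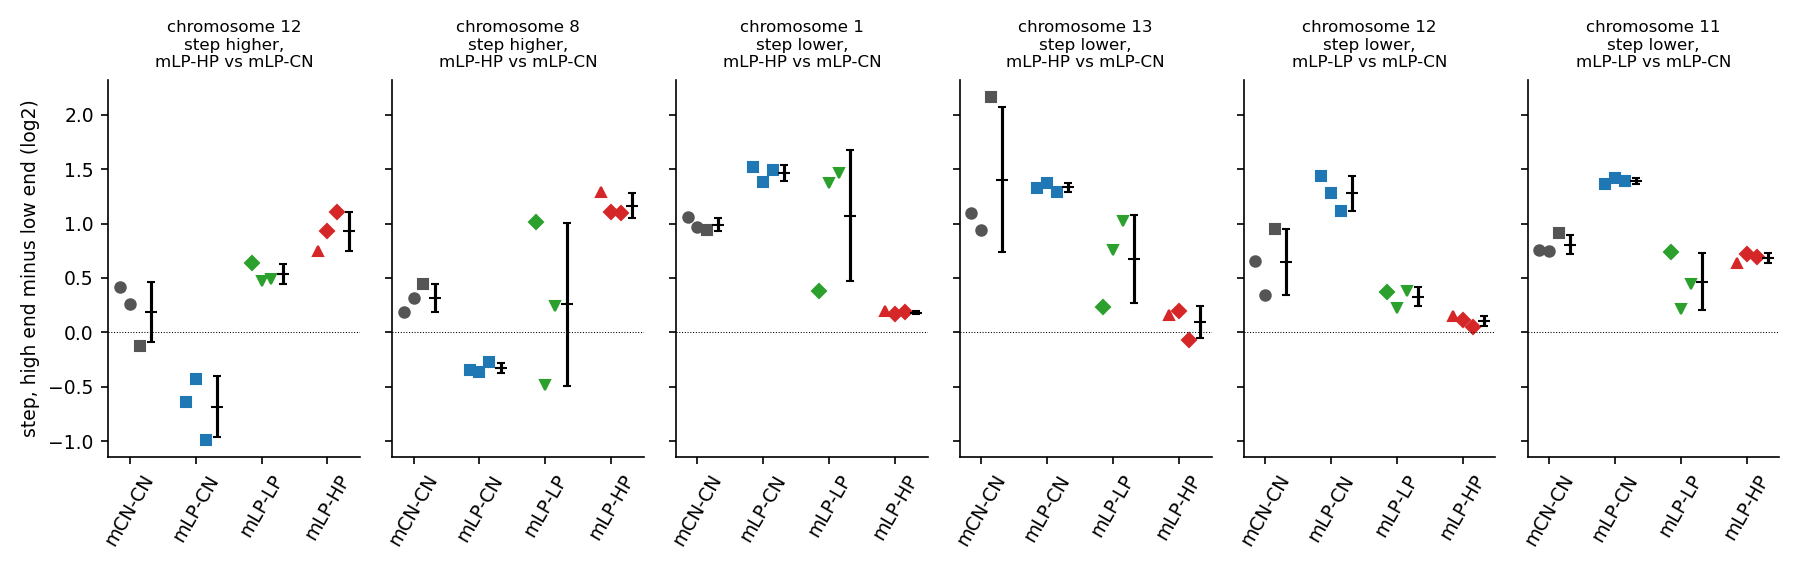
Step (log2 units, normalized scale) on each array of 6 members, those with the largest increases and decreases in mLP-HP vs. mLP-CN and the largest decreases in mLP-LP vs. mLP-CN; circles, squares, upright triangles, diamonds, and inverted triangles mark scans 1 to 5, and bars show the mean ± SD of 3 arrays. In the first 2 panels the mLP-CN arrays lie below 0, and in the next 4 they lie between 1.12 and 1.52.

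In mLP-CN vs. mCN-CN, the largest increases were on chromosome 12 (33622180 to 33623801) and chromosome 10 (40366377 to 40368014, falling). They were 0.63 ± 0.15 (adjusted p = 0.040) and 0.62 ± 0.15 (adjusted p = 0.042), and each passed under 6 of 18 alternatives. On chromosome 10 the step was 0.95, 0.92, and 1.14 in mCN-CN and 1.42, 1.78, and 1.67 in mLP-CN, and the 2 groups did not overlap. Among the members with a smaller step, the rule named 1 on chromosome 8 (112112818 to 112114537, falling) beside that on chromosome 12 (28248928 to 28250498). Only 2 of 36 readings of its low end were well above background in both channels, and without dim probes it could not be fitted, so that no difference in step is given. Its high end was at 0.28 ± 0.07 in mCN-CN and −0.19 ± 0.04 in mLP-CN (SD, n = 3), a difference of −0.48 ± 0.08 (SE, adjusted p = 0.017), with 24 of 36 readings well above background.

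Members called in at least 2 comparisons with the lowest p-values were on chromosome 13 (87512113 to 87513775), chromosome 2 (173734803 to 173736268), and chromosome 1 (122503692 to 122505341). Their differences for mLP-LP vs. mLP-CN were 0.86 ± 0.12, 0.86 ± 0.13, and 0.78 ± 0.13 (adjusted p = 0.0028, 0.0028, and 0.0039), and those for mLP-HP vs. mLP-CN were 0.95 ± 0.12, 0.80 ± 0.13, and 0.56 ± 0.13 (adjusted p = 0.00030, 0.00055, and 0.0040). On chromosome 13, where the probe lengths of the ends were nearly equal (45 and 45.3 bases), the step was 0.35, 0.35, and 0.15 in mCN-CN, 0.15, 0.04, and −0.19 in mLP-CN, 0.80, 0.91, and 0.86 in mLP-LP, and 0.95, 0.84, and 1.06 in mLP-HP. The mLP-LP and mLP-HP arrays lay above all arrays of the other 2 groups. The mLP-CN arrays are the common control of both differences. The 3 probes of the low end were well above background in both channels on 8, 1, and 0 of 12 arrays on chromosome 2. These counts were 0, 1, and 12 on chromosome 1 and 12, 12, and 1 on chromosome 13.

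The mean level of members was fitted separately, over 16055 promoters with at least 3 probes. For mLP-CN vs. mCN-CN, 19 members were higher and 54 lower (0.597% and 1.70%), beside 1.14% and 2.24% of all promoters. Without mCN-CN replicate 3 the numbers were 132 and 172, and without mCN-CN replicate 1 or 2, or mLP-CN replicate 4 or 6, 4 to 7 were called. Without mLP-CN replicate 5, 44 were called. For mLP-LP vs. mLP-CN, 360 were higher and 139 lower (11.3% and 4.37%), beside 11.8% and 7.92%. With scan fitted as a random block, 9 were called. The count of 499 fell to 211, 241, and 262 without mLP-CN replicate 4, mLP-CN replicate 6, or mLP-LP replicate 12. For mLP-HP vs. mLP-CN, 687 were higher and 389 lower (21.6% and 12.2%), beside 21.3% and 17.0%. Scaling moved these splits. Without quantile normalization the higher and lower counts were 1 and 513, 1275 and 5, and 1520 and 131 in the same order, and with arrays scaled to one SD they were 4 and 861, 1545 and 19, and 1424 and 122. For mLP-HP vs. mLP-LP no member was called in limma (background 0%), with 625 at an unadjusted p under 0.05 (beside 19.6%, or 3150 of 16055, of all promoters) and 638 called without mLP-LP replicate 10. With the length effect removed, 17 members were higher and 10 lower in mLP-CN vs. mCN-CN (0.534% and 0.314%, beside 0.654% and 0.747% of all promoters). In mLP-LP vs. mLP-CN the counts were 123 and 136 (3.86% and 4.27%, beside 5.11% and 4.34%), and in mLP-HP vs. mLP-CN they were 455 and 406 (14.3% and 12.8%, beside 16.7% and 13.2%). The median differences over the members in these comparisons were −0.03, 0.03, and 0.02 before and 0.0074, −0.0029, and 0.00077 after the removal.

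Among members, the largest decrease of the mean level in mLP-CN vs. mCN-CN was on chromosome 8 (115139408 to 115141098), with levels of 0.06, 0.12, and 0.43 in mCN-CN and −0.21, −0.18, and −0.46 in mLP-CN (difference −0.49 ± 0.09, adjusted p = 0.010). The next was on chromosome 13 (95951339 to 95952763), where the level was 0.28, 0.28, and 0.21 in mCN-CN, −0.18, −0.08, and −0.07 in mLP-CN, 0.32, 0.30, and 0.21 in mLP-LP, and 0.36, 0.32, and 0.32 in mLP-HP. The mLP-CN arrays of this promoter were below every array of the other 3 groups. The differences were −0.37 ± 0.05 for mLP-CN vs. mCN-CN (adjusted p = 0.0054), 0.39 ± 0.05 for mLP-LP vs. mLP-CN (adjusted p = 0.00051), and 0.45 ± 0.05 for mLP-HP vs. mLP-CN (adjusted p = 4.7e-05). The largest increases in mLP-CN vs. mCN-CN were 0.36 ± 0.06 on chromosome 1 (233522507 to 233524219, adjusted p = 0.0075) and a further increase on chromosome 15 (89315196 to 89316789), whose size is not given because its low end was not well above background in any of 36 readings. The high end of the promoter on chromosome 15 differed by 0.26 ± 0.10 (adjusted p = 0.13). The promoter on chromosome 1 was also dim. Its first 3 probes were well above background in both channels on 11, 0, and 0 of the 12 arrays, and its last 3 on 0, 12, and 2.

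After birth, the largest increases of the mean level in mLP-LP vs. mLP-CN were on chromosome 14 (36536683 to 36538379) and chromosome 15 (32788859 to 32790488). On chromosome 14 the level was 0.10, 0.20, and 0.18 in mCN-CN, −0.10, −0.06, and −0.10 in mLP-CN, 0.49, 0.36, and 0.39 in mLP-LP, and 0.32, 0.44, and 0.42 in mLP-HP, so that the mLP-CN arrays were again the lowest. Its difference was 0.50 ± 0.06 (adjusted p = 9.9e-05), and with scan fitted as a random block it still passed (adjusted p = 0.0081). On chromosome 15, where both ends had probes of 45 bases, the difference was 0.49 ± 0.07 (adjusted p = 0.00089), which did not pass with scan fitted as a random block (adjusted p = 0.071). The largest decreases, on chromosome 19 (13848723 to 13850354) and chromosome 17 (53400894 to 53402351), were −0.42 ± 0.07 and −0.38 ± 0.09 (adjusted p = 0.0020 and 0.0067). Both were lost with the random block (adjusted p = 0.12 and 0.26), and they passed under 10 and 9 of 16 alternatives. Parts of both promoters were dim. The arrays on which each probe was well above background in both channels, out of 12, are given in order of position. On chromosome 19 they numbered 12, 8, 8, 12, 0, 0, 5, 12, and 0. On chromosome 17 they numbered 0, 0, 11, 0, 0, 12, 12, 0, and 12.

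In mLP-HP vs. mLP-CN, the mean level rose most on chromosome 1 (204721548 to 204723365), from −0.24, −0.31, and −0.34 in mLP-CN to 0.22, 0.29, and 0.38 in mLP-HP (difference 0.59 ± 0.07, adjusted p = 6.1e-05). It also rose on chromosome 3 (76790171 to 76791922), by 0.58 ± 0.09 (adjusted p = 0.00021), where mLP-LP replicate 10 was at 0.19 and replicates 11 and 12 were both at −0.27. It fell most on chromosome 10 (67325975 to 67327767), where the level was 0.49, 0.55, and 0.60 in mLP-CN and 0.11, 0.13, and 0.07 in mLP-HP (difference −0.45 ± 0.06, adjusted p = 6.1e-05), and on chromosome 4 (135570809 to 135572434), where the difference was −0.44 ± 0.06 (adjusted p = 0.00011). Part of the promoter on chromosome 4 was dim. Its probes at 0, 306, 622, and 1096 bp were well above background in both channels on 0 of 12 arrays. The member on chromosome 10 had a step of 1.77 with uncorrected signals, positive on all 12 arrays (1.09 to 2.54). Its step did not pass in this comparison (0.21 ± 0.12, adjusted p = 0.17), and 12 of 36 readings of its low end were well above background.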

How the data were processed

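MeDIP-chip data of 12 arrays, 3 per group by the labels, were used. The authors deposited output of Agilent Feature Extraction 11.0.1.1 holding the median intensities of spots and local background in both dyes, processed intensities, and flags. A further table deposited by the authors holds values taken as log2 ratios (by their methods median centered, quantile normalized, and smoothed). It was used as an alternative, and its exact scale is not stated. In limma 3.58.1 (R 4.3.3), background was corrected with normexp (offset 50), flagged spots (170 to 16509 probes per array) were treated as missing, and log2 ratios were centered and quantile normalized. Quantile normalization forces equal distributions and can hide shifts common to all probes. Where the alternatives named in the closing section were tried, 1 choice was changed at a time. Fits used all 12 arrays (8 residual degrees of freedom) with Benjamini-Hochberg adjustment, and were tested on simulated data with independent noise on each array and no scan effect. In the real data the estimated correlation within scans was 0.52 for the step and 0.53 for the mean level. The simulation therefore cannot show how the fits behave with such a correlation. The number of arrays limits the precision, and the median residual SD was 0.182 for the step and 0.0767 for the mean level. Named promoters were the 4 steepest in each direction, 2 on each side of the threshold, up to 2 in each direction per comparison and measure, and up to 3 called in at least 2 comparisons. The members, lists, and tests were chosen with earlier results of these data known. Positions are on build rn4. Genes and sequences were not analysed here.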

Additional observations from a re-analysis of the deposited data

How the results depend on the processing

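No paired analysis was possible because the groups share no replicate numbers. The number of members was 2392 to 3229 under all alternatives except the filter on dim probes, which left 1672. These totals hide changes of membership. Of the 3183, the rule also chose 2213 on normexp-corrected, quantile normalized values (the scale of all differences), 2330 on processed signals, 2806 on the authors' table, 1489 with the length effect removed, and 1118 without dim probes. The differences of named promoters kept their sign in all 402 values computed under alternatives, and 92 of these no longer passed. These promoters were picked from the same data, as the largest called differences between groups whose arrays did not overlap. Leaving out an array cannot turn the sign of such a difference, so that part of the 402 signs was fixed by the choice. The kept signs are therefore a description and not a test of the differences. Of 136 medians over the members, 47 moved by more than the spread and 16 changed sign. The medians of the step changed sign in the first 3 comparisons with the length effect removed (0.02, −0.03, and −0.01), in mLP-CN vs. mCN-CN without dim probes (0.02), and in mLP-HP vs. mLP-LP with scan as a fixed block (−0.02). The cause of these moves was not tested.

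The counts under alternatives below are given without the share over all promoters and show only how the calls move with the setting. In mLP-CN vs. mCN-CN, 65 members were called for the step. The count was 36 without background correction, 0 with the processed signals, 23 without quantile normalization, 0 after loess, 37 with the authors' table, 0 without dim probes, 22 with the length effect removed, 101 with scan as a random block, and 253 with scan as a fixed block. It ranged from 0 to 335 without 1 array. For the mean level (73 called), the counts in the same order of settings were 29, 0, 514, 0, 47, 341, 27, 179, and 359. They were 865 with arrays scaled to one SD and 132 with flagged spots kept, and 4 to 304 without 1 array.

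In mLP-LP vs. mLP-CN, 421 were called for the step. The count was 12 without background correction, 0 with the processed signals, 266 without quantile normalization, 0 after loess, 6 with the authors' table, 69 without dim probes, and 0 with scan as a random block. It was 105 to 440 without 1 array. For the mean level (499 called), these settings gave 29, 0, 1280, 0, 27, 919, and 9. Scaled arrays gave 1564, removal of the length effect 259, and leaving out 1 array 211 to 549.

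In mLP-HP vs. mLP-CN, 1148 were called for the step, against 719 without background correction, 2044 without quantile normalization, 578 without dim probes, and 176 with scan as a random block. Without 1 array the count was 748 to 990. For the mean level (1076 called), the counts were 673 without background correction, 1651 without quantile normalization, 387 after loess, 240 with scan as a random block, and 739 to 887 without 1 array. In mLP-HP vs. mLP-LP, where 0 were called in limma for either measure, 288 were called for the step with the processed signals, 346 without quantile normalization, and 0 to 767 without 1 array. For the mean level these counts were 164, 250, and 0 to 638, with 87 after loess. Signals near background at the low ends limit the precision of the step, since 60.5% of readings there were well above background in both channels.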
